A study of Mus musculus with 45 samples.

Results

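The enzymes that write and erase methylation on lysine 4 of histone H3 (H3K4) were described as 10 genes: the methyltransferases Kmt2a, Kmt2b, Kmt2c, Kmt2d, Setd1a and Setd1b, the CpG-binding subunit Cxxc1, and the demethylases Kdm1a, Kdm1b and Kdm5b. They were found by gene symbol, and all 10 were among the 55357 genes of the deposited count table. RNA was measured in 45 single mouse oocytes. In a reconstituted chimeric follicle, an oocyte was put into a follicle that had lost its own oocyte, and the pair was then cultured. The follicles came in the 3 groups AA (n = 12), AY (n = 6) and YY (n = 11), in which the first letter is the age of the oocyte and the second that of its somatic cells, A for aged and Y for young. As controls, young oocytes were taken after in vitro culture (in vitro young, n = 8) or with no culture (in vivo young, n = 8). No genotype, strain, age in months, meiotic stage or animal is named in the sources used here. Each n thus counts single oocytes, and oocytes of a group may come from the same animal. P-values therefore measure the spread between single oocytes, part of which may be technical. They cannot be read as measuring the spread between animals or cultures.

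H3K4 trimethylation sits at active and CpG-rich promoters, and monomethylation sits mainly at enhancers. In growing mouse oocytes trimethylation also spreads into broad domains away from active promoters, and KMT2B is known as the enzyme that lays down most of it there. KDM1B removes mono- and dimethylation and is known to be needed for setting DNA methylation imprints in the oocyte. CXXC1 brings the SETD1 enzymes to unmethylated CpG, KMT2C and KMT2D act at enhancers, KDM1A (LSD1) acts with corepressors, and KDM5B removes trimethylation.

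Because CXXC1 and the KMT2A and KMT2B proteins bind CpG, the CG content of the members' own promoters was read. RefSeq promoter windows on GRCm38.p6, each the 250 bases upstream of the start, were matched for 7 of the 10 genes. Kmt2a, the member with almost no reads, Kmt2d, the member with the smallest p in AA against YY, and Kdm1b, the most abundant member per length of exon, are shown 5′ to 3′ on the gene's strand with every CG in capitals.
Kmt2a, chr9:44881290-44881539, minus strand: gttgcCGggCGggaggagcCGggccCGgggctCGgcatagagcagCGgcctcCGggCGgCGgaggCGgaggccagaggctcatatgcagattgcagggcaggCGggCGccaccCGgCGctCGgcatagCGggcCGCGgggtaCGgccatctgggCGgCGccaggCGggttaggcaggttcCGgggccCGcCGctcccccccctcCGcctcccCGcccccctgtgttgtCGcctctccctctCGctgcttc
Kmt2d, chr15:98871206-98871455, minus strand: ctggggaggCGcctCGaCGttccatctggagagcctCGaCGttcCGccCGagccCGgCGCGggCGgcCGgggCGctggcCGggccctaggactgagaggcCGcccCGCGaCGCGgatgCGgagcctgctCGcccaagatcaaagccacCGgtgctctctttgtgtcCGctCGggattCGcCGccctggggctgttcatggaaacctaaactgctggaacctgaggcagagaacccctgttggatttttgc
Kdm1b, chr13:47043249-47043498, plus strand: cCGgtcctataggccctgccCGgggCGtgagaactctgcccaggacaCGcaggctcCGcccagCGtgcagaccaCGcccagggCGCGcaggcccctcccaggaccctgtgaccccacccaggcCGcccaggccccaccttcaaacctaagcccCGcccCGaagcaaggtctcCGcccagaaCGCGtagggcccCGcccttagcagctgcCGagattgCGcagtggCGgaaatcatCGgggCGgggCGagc
The Kmt2a window held 29 CG, the Kmt2d window 26 CG and the Kdm1b window 22 CG, against a median of 6 CG over 32851 windows of that length. CG is its own reverse complement, so both strands hold the same number, and 92.1% of all windows held at least 1. As many CG as in Kmt2a were found in 6.8% of all windows, as many as in Kmt2d in 9.6% and as many as in Kdm1b in 14.8%. Of the other matched members, Kmt2c had 48 CG, Setd1a 25 CG, Kdm1a 21 CG and Kdm5b 13 CG. The members with almost no reads and with many were thus both CG-rich in this window, which is a description of sequence and not of binding.

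The libraries held between 418703 and 2201980 counts, with medians of 792112 in AA, 792576 in AY, 816218 in YY, 1199472 in in vitro young and 1122358 in in vivo young. Levels are in CPM, a gene's share of a library's counts on a fixed scale, after TMM scaling, the trimmed mean method that sets libraries on a common scale. All 12 oocyte markers were detected in every group, with summed levels of 15299 to 21837 CPM in AA, 17892 to 21764 CPM in AY, 14630 to 19885 CPM in YY, 15449 to 23741 CPM in in vitro young and 19013 to 26998 CPM in in vivo young. The series held 11 genes that were fully present or nearly absent, and they divided the 45 libraries into 10 patterns. There were 2 patterns in AA, 2 in AY, 4 in YY, 4 in in vitro young and 3 in in vivo young. AA, AY and YY shared no pattern with each other, so pattern and group cannot be told apart among them. The patterns of YY libraries S198 to S202 also occurred in the controls. Each group also had library numbers of its own, some groups in several runs, so group and run cannot be told apart.

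In the deposited coordinates, on mm39, Kmt2b lies at chr7:30268283-30288152, Kmt2c at chr5:25476796-25703782, Kmt2d at chr15:98729550-98769086 and Kdm1b at chr13:47196975-47238756. The members spanned a wide range of abundance. Kmt2a had 20 counts in all, in 10 of 45 libraries, with at most 4 in any library, while the other 9 members had a count in all 45. Per kilobase of exon, Kdm1b was the most abundant member in every group, at 20.3 CPM per kb in AA, 20.9 in AY, 15.1 in YY, 26.1 in in vitro young and 31.4 in in vivo young. In in vivo young oocytes Kmt2c followed at 10.9 CPM per kb, Kdm1a at 7.52, Cxxc1 at 6.72 and Kmt2d at 5.29. Kmt2b stood at 2.21 CPM per kb there, Setd1b at 1.49, Setd1a at 1.15, Kdm5b at 0.51 and Kmt2a at 0.028. Kmt2b, whose enzyme is known for the oocyte's bulk H3K4 trimethylation, thus stood below Kmt2c and Kmt2d among the writers by RNA per length.

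**Figure D1:**
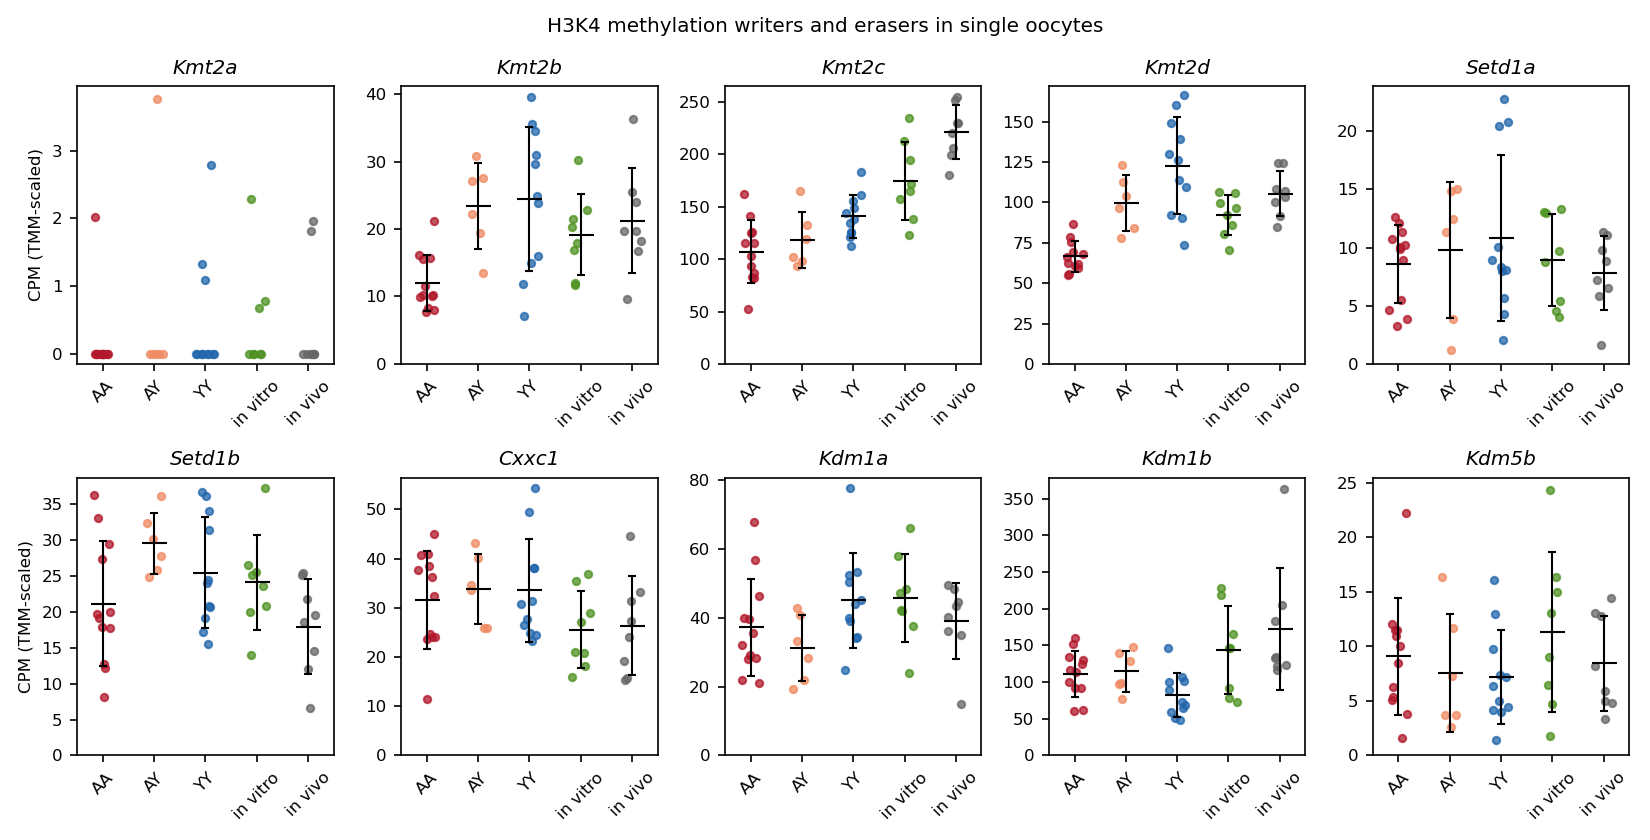
TMM-scaled CPM of each member (vertical axis, linear) in each library, by group from left to right; points are libraries and black bars are the mean and SD, which are left out for Kmt2a because of its few counts. Kmt2d sits between 54.8 and 86.7 CPM in AA and between 73.5 and 167 CPM in YY, and Kmt2c sits between 52.2 and 162.5 CPM in AA and between 180 and 255 CPM in in vivo young.

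The first comparison, of AA with YY oocytes, sets aged follicles against young ones. Kmt2d, Kmt2b and Kmt2c fell in AA, no member rose, and Kdm1b was higher without passing the test. The 3 lower genes were among 7 members with enough counts to be tested (Kmt2a, Setd1a and Kdm5b were not), against a background of 14.7% of 8533 tested genes called lower and 12.8% called higher, 27.5% in all. The median log2 fold change was -0.32 over the 7 tested members and -0.01 over all tested genes. A gene was called at an adjusted p under 0.05 by edgeR's quasi-likelihood fit, adjusted over all tested genes by the Benjamini-Hochberg method. With the GC content and length correction 2 members were called, Kmt2d lower and Kdm1b higher, against 12.8% of genes lower and 13.2% higher in that fit. In a limma voom fit with the pattern of all-or-nothing genes as a random block, only Kmt2d was called lower, against 5.88% of genes. Since AA and YY share no pattern, that fit compares them only across patterns.

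Kmt2d, an enhancer methyltransferase like Kmt2c, had 54.8, 64.3 and 86.7 CPM as its lowest, median and highest levels in AA, against 73.5, 126 and 167 CPM in YY. Of the 12 AA libraries, 9 lay below the lowest YY library, and 10 of the 11 YY libraries lay above the highest AA library, so the groups overlapped little. The means were 66.6 ± 9.69 CPM in AA (SD, n = 12) and 123 ± 30.0 CPM in YY (SD, n = 11). Its fitted log2 fold change was -0.89 ± 0.12 (SE), with an edgeR adjusted p of 1.53e-06, and Kmt2d was called in all 13 alternative fits and in each fit that left out 1 library. Its size was not stable: with the GC content and length of transcripts corrected for, it was -0.35 ± 0.12, with an edgeR adjusted p of 0.0221.

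Kmt2b, the trimethylation enzyme, had 7.69, 10.2 and 21.2 CPM as its lowest, median and highest levels in AA, against 7.05, 24.9 and 39.6 CPM in YY. All 12 AA libraries lay below the YY median, yet the ranges overlapped, since 1 YY library was below the lowest AA library. Kmt2b had a log2 fold change of -1.03 ± 0.24, with an edgeR adjusted p of 0.00122. Its counts were few in AA, 115 over 12 libraries, against 218 over 11 libraries in YY. It passed the count filter mainly through AY and YY libraries, where its level was higher. It was called as well with no filter on low counts. Kmt2c, the other enhancer methyltransferase, had 52.2, 109 and 162.5 CPM as its lowest, median and highest levels in AA, against 112, 138 and 183 CPM in YY. Of the AA libraries, 6 of 12 lay below the lowest YY library and 10 of 12 below the YY median. Kmt2c had a log2 fold change of -0.41 ± 0.13, with an edgeR adjusted p of 0.0137. With the GC content and length correction neither was called, at -0.49 and an edgeR adjusted p of 0.095 for Kmt2b and -0.22 and 0.183 for Kmt2c. With the random block of pattern, in limma voom, both lost the call too. Kmt2b was at -0.84 and Kmt2c at -0.41, each with a limma adjusted p of 0.115.

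Among the erasers, Kdm1b had 60.0, 115 and 159.7 CPM as its lowest, median and highest levels in AA, against 47.8, 73.004 and 147 CPM in YY. The ranges overlapped widely. Its log2 fold change was 0.41 ± 0.17, with an edgeR adjusted p of 0.0748, which did not pass. Of the 13 alternative fits 5 called it higher, namely limma voom, no filter on low counts, the replicate block, the GC content and length correction and YY S225 to S231 alone, and DESeq2 did not. The log2 fold change ranged between 0.21 and 0.58 over those 13 fits, and the adjusted p of edgeR, DESeq2 or limma between 0.00528 and 0.626. Single libraries also moved the call. Without YY replicate 3, which had the highest Kdm1b level and the lowest Kmt2b and Kmt2d levels of the YY group, the log2 fold change was 0.53 and the edgeR adjusted p 0.0115. Kdm1b was also called without AA replicate 1 (0.45, edgeR adjusted p 0.045) and without AA replicate 4 (0.47, edgeR adjusted p 0.0331). Kdm1b overlaps Tpmt and Dek, and 505 bases of its GENCODE M21 exons are also exon of Dek on the other strand. The sources used here do not say whether counting used strand. The log2 fold change of Dek in AA against YY was -0.16 and that of Tpmt was 0.07, neither called.

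Kdm1a, Setd1b and Cxxc1 did not pass. Kdm1a averaged 37.2 ± 14.1 CPM in AA and 45.02 ± 13.8 CPM in YY (SD, n = 12 and n = 11), with a log2 fold change of -0.30 ± 0.18. Setd1b averaged 21.2 ± 8.68 CPM in AA and 25.5 ± 7.78 CPM in YY, with a log2 fold change of -0.32 ± 0.21, and Cxxc1 averaged 31.7 ± 9.96 CPM in AA and 33.6 ± 10.4 CPM in YY, with -0.10 ± 0.18. The edgeR adjusted p was 0.222 for Kdm1a, 0.256 for Setd1b and 0.735 for Cxxc1. The GC content and length correction turned Setd1b to 0.22 and Cxxc1 to 0.11. Setd1a, below the count filter, averaged 8.57 ± 3.35 CPM in AA and 10.9 ± 7.12 CPM in YY. Kdm5b, also below it, averaged 9.08 ± 5.39 CPM in AA and 7.16 ± 4.31 CPM in YY. Setd1a shares 3523 bases of GENCODE M21 exon with Gm49388 on its own strand, which had 0 counts, and the sources used here do not say how reads in shared exons were counted.

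The YY libraries fall into 2 runs of library numbers, S198 to S202 (n = 5) and S225 to S231 (n = 6). Kmt2b averaged 29.8 ± 8.69 CPM in S225 to S231 and 17.96 ± 9.80 CPM in S198 to S202 (SD), while Kmt2d averaged 129.3 ± 26.7 and 115 ± 34.9 CPM in the same runs. Against S225 to S231 alone, the log2 fold change in AA was -1.32 for Kmt2b, -0.51 for Kmt2c, -0.98 for Kmt2d and 0.58 for Kdm1b, all called by edgeR, in a comparison with 19.4% of tested genes called lower and 18.7% higher. Against S198 to S202 alone, Kmt2d was called at -0.77, with an edgeR adjusted p of 0.00104, and Kmt2b at -0.56 and Kmt2c at -0.29 were not. In that comparison 3.15% of tested genes were called lower and 2.27% higher. Kmt2d was thus the only member called lower in AA against each YY run taken alone. The AA libraries belong to neither run, so group and run stayed confounded in these fits.

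**Figure D2:**
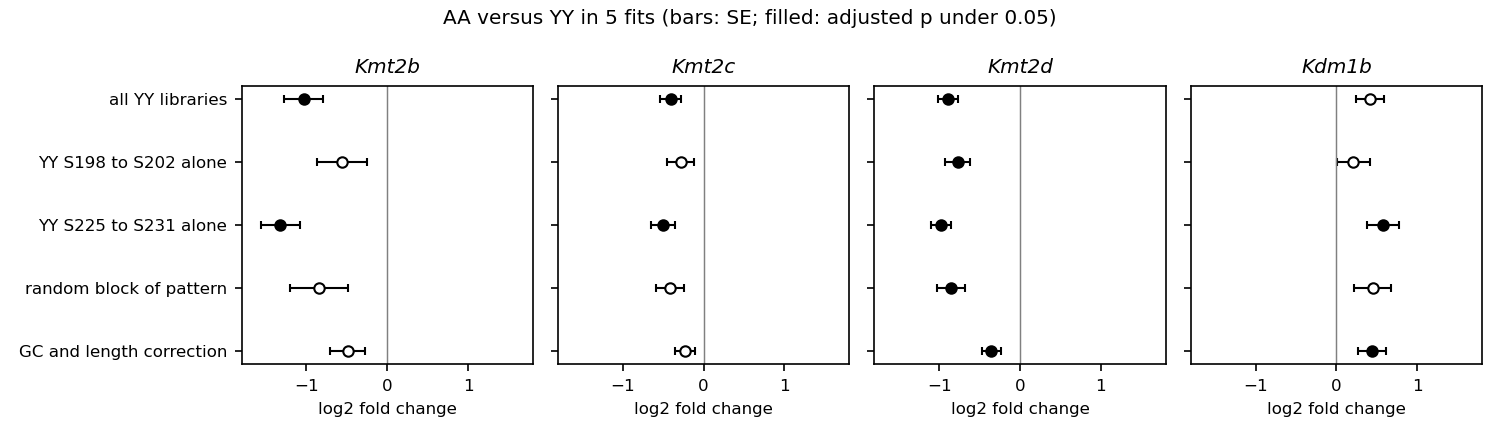
Log2 fold change of AA over YY (horizontal axis) with its SE for Kmt2b, Kmt2c, Kmt2d and Kdm1b in 5 fits, one per row; filled points have an adjusted p under 0.05. Kmt2d is filled in all 5 rows, at -0.89 with all YY libraries and -0.35 with the GC content and length correction. The row with the random block of pattern is a limma voom fit, and the others are edgeR fits.

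Transcripts of the members differ in base composition, which the correction above uses. The longest GENCODE M21 transcript had a GC content of 59.1% for Kmt2b, 58.4% for Kmt2d, 59.0% for Setd1b, 58.4% for Cxxc1 and 57.0% for Setd1a. It was 51.7% for Kdm1a, 50.6% for Kmt2a, 47.6% for Kmt2c and for Kdm5b, and 44.4% for Kdm1b. The members with the larger falls in AA, Kmt2b and Kmt2d, were among those with a high GC content, and Kdm1b had the lowest. Setd1b and Cxxc1 had a similarly high GC content and were not called, at log2 fold changes of -0.32 and -0.10. Kmt2c, at 47.6%, was called lower, at -0.41. How far GC content and length account for the differences was not tested beyond the corrected values given here.

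The summed level of the granulosa cell markers also differed between groups. It was 77.6 to 259 CPM in AA, with 11 of 14 markers detected, 71.3 to 196 CPM in AY, with 10 detected, and 57.8 to 101 CPM in YY, with 8 detected. Amh and Ptx3 had no count in any library, and Inha and Inhba, named here after their values were seen, were higher in AA than in YY by log2 fold changes of 2.78 and 1.99 (edgeR adjusted p of 1.28e-04 and 0.00133). The other 2 tested granulosa markers were not called in AA against YY, Cyp19a1 at 0.37 (edgeR adjusted p of 0.290) and Nr5a2 at -0.22 (edgeR adjusted p of 0.283). In AY against YY, Inha was called at 2.63 (edgeR adjusted p of 0.00969), and Inhba at 1.802, Cyp19a1 at -0.08 and Nr5a2 at -0.44 were not. Theca and stroma markers summed to at most 7.62 CPM in any library and immune markers to at most 33.5 CPM. Endothelium and blood markers summed to 60.0 to 134 CPM in AA, with 4 of 6 detected, 31.7 to 86.4 CPM in AY, with 3 detected, and 34.3 to 98.6 CPM in YY, with 3 detected, and Cdh5 and Hbb-bs were at 0 in every library. Pecam1, the tested gene of that list, was 0.40 in AA against YY (edgeR adjusted p of 0.0838), -0.67 in AY against AA (edgeR adjusted p of 0.0523) and -0.27 in AY against YY, none of them called. The part of other cells in the members' differences was not tested, and since CPM are shares of a library, a fall of 1 gene and a rise of the rest cannot be told apart.

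The wider pathway held 52 other genes, of which 37 had enough counts, and 16 of these fell and 1 rose in AA against YY. That is 43.2% lower, with a median log2 fold change of -0.37, beside 14.7% lower, 12.8% higher and a median of -0.01 over all tested genes. The counts by role below stand against the same shares. Genes of the methyltransferase complexes contributed 7 of 14 tested genes lower, among them Bod1, which averaged 31.6 ± 9.41 CPM in AA and 64.2 ± 28.1 CPM in YY and fell by 1.05 on the log2 scale (edgeR adjusted p of 1.27e-04). Bod1l, a SETD1A-bound protein that protects replication forks, averaged 104 ± 23.2 CPM in AA and 151 ± 23.0 CPM in YY and fell by 0.55 (edgeR adjusted p of 2.48e-04). Psip1, the chromatin reader that tethers KMT2A and menin, averaged 180.2 ± 17.96 CPM in AA and 240.7 ± 36.7 CPM in YY and fell by 0.43 (edgeR adjusted p of 3.19e-04).

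Of the core subunits Wdr5, Rbbp5, Ash2l and Dpy30, which these enzymes share, Dpy30 alone passed, at -0.33 ± 0.11 (edgeR adjusted p of 0.0299), a gene named after its values were seen. Among proteins that read the mark, 6 of 10 tested genes were lower and none higher. The smallest p among them was that of Ing1, a reader of H3K4 trimethylation in the SIN3 deacetylase complex, with a mean of 194 ± 27.8 CPM in AA oocytes, against 264 ± 47.2 CPM in YY oocytes (log2 fold change -0.46, edgeR adjusted p of 2.25e-04). By size Chd1, at -1.15, and Dido1, at -0.93, both named after their values were seen, stood lower. Of the partners of the LSD demethylases, 3 of 8 were lower, namely Gse1, Hdac2 and Glyr1, the last a cofactor of KDM1B, all named after their values were seen. Among the other writers, Smyd3 was higher and the other 2 tested genes did not pass, with 184 ± 37.0 CPM in AA oocytes, against 125 ± 22.6 CPM in YY oocytes, for Smyd3, a log2 fold change of 0.55 and an edgeR adjusted p of 1.34e-04. SMYD3 was first described as an H3K4 methyltransferase and also methylates proteins other than histones. Neither of the 2 tested other erasers passed. With the random block of pattern the pathway count was 9 lower and 1 higher of 37, where 5.88% of all tested genes were called lower. Against S198 to S202 alone it was 4 lower and 1 higher of 36, where 3.15% of all tested genes were called lower and 2.27% higher.

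**Figure D3:**
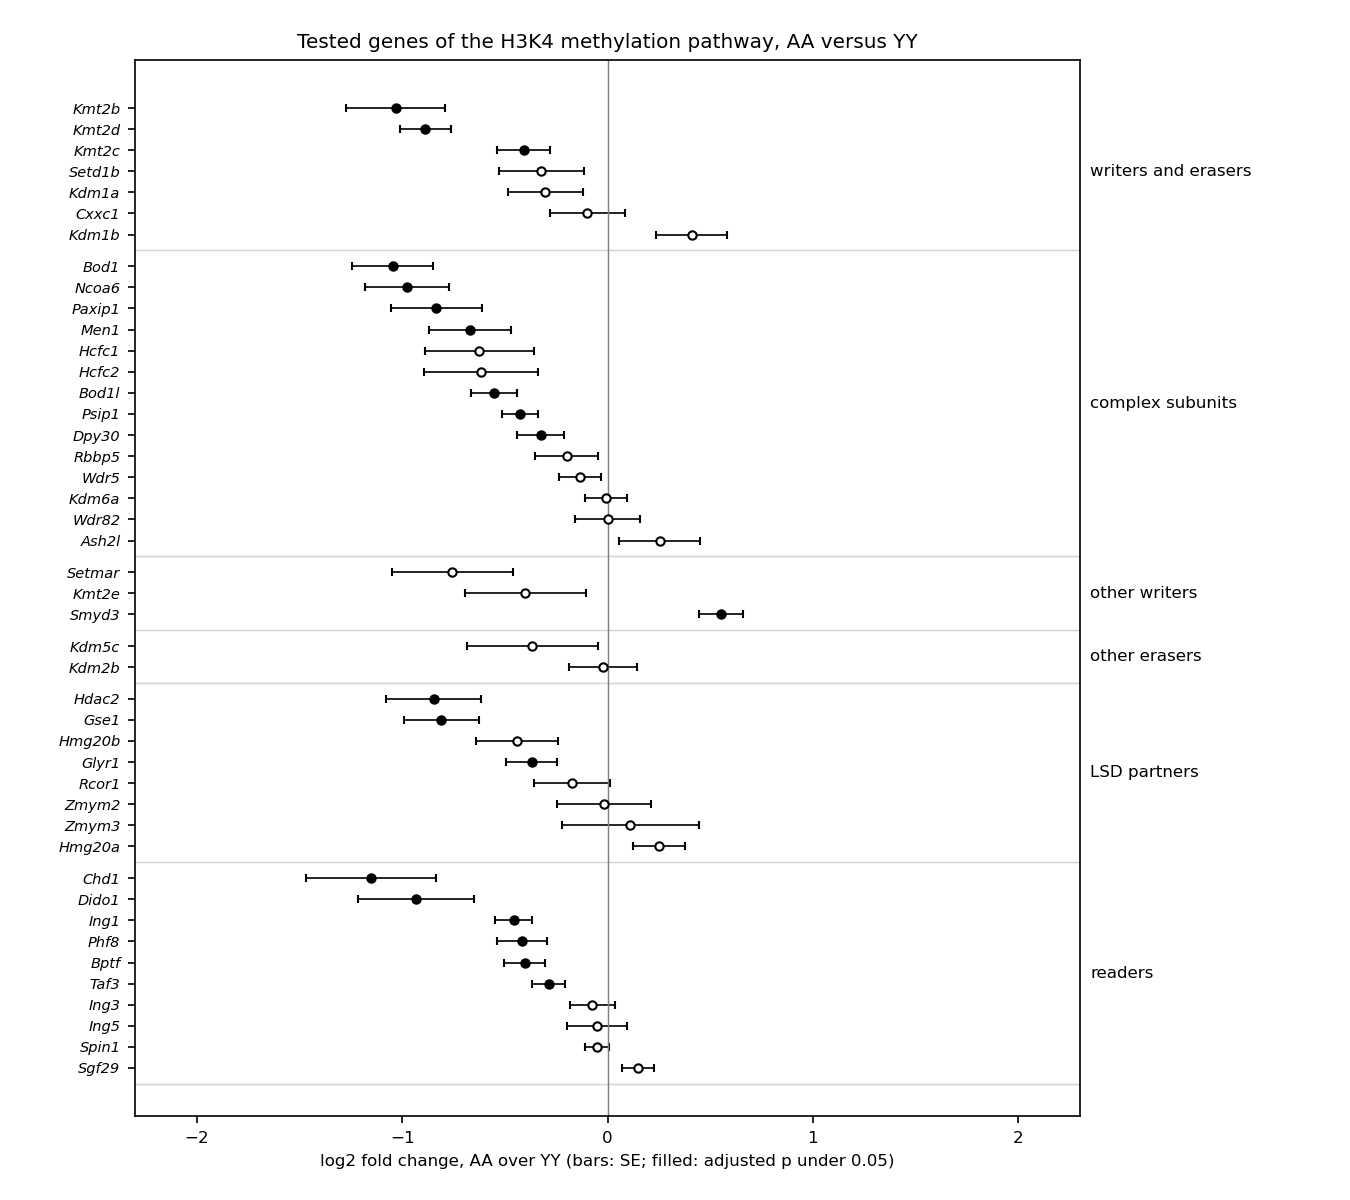
Log2 fold change of AA over YY (horizontal axis) with its SE for the 7 tested members and the 37 other tested pathway genes, grouped by role and ordered within each; filled points have an adjusted p under 0.05. Of the 37 other genes, 16 filled points lie left of 0 and 1, Smyd3, lies right of it.

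The comparison of AY with AA holds the age of the oocyte and changes that of the somatic cells. Kmt2d and Kmt2b were higher in AY, 2 of 7 tested members, against a background of 3.52% of 8533 genes called higher and 6.59% called in all. The AA libraries here also served as one side of the comparison above. Kmt2d had 77.8, 100.4 and 124 CPM as its lowest, median and highest levels in AY, against 54.8, 64.3 and 86.7 CPM in AA. Of the AA libraries, 10 of 12 lay below the lowest AY library, and 4 of the 6 AY libraries lay above the highest AA library. Kmt2d had a log2 fold change of 0.59 ± 0.15, with an edgeR adjusted p of 0.0116.

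Kmt2b had 13.5, 24.7 and 30.9 CPM as its lowest, median and highest levels in AY, against 7.69, 10.2 and 21.2 CPM in AA. All 12 AA libraries were below the AY median. Kmt2b had a log2 fold change of 0.97 ± 0.28, with an edgeR adjusted p of 0.0298. It rested on few counts, 119 over the 6 AY libraries and 115 over the 12 AA libraries, and was called with no filter on low counts too. Leaving out 1 library could end these calls. Without AY replicate 1, which had the highest Kmt2b and Kmt2d levels of AY, the edgeR adjusted p was 0.111 for Kmt2b, at 0.87, and 0.0587 for Kmt2d, at 0.52. Without AY replicate 3 the edgeR adjusted p of Kmt2b was 0.0599 and without AY replicate 6 it was 0.0685. With the GC content and length correction Kmt2b was 0.62 and Kmt2d 0.35, and neither was called (edgeR adjusted p of 0.141 and 0.130). With the random block of pattern, fitted in limma voom, the values were 1.00 for Kmt2b and 0.64 for Kmt2d. Neither was called (limma adjusted p of 0.197 and 0.109).

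Kmt2c, which fell in AA, was not called in AY against AA. Its lowest, median and highest levels were 93.3, 111 and 164.5 CPM in AY, against 52.2, 109 and 162.5 CPM in AA, and the log2 fold change was 0.15 ± 0.15 (edgeR adjusted p of 0.616). Setd1b, a SETD1 family methyltransferase, averaged 29.6 ± 4.24 CPM in AY and 21.2 ± 8.68 CPM in AA (SD, n = 6 and n = 12), with 0.53 ± 0.24 and an edgeR adjusted p of 0.177. Kdm1b was near 0 at 0.05 ± 0.20, Cxxc1 at 0.10 ± 0.22 and Kdm1a at -0.27 ± 0.23, and none of these passed. None of the 37 other pathway genes was called by edgeR in AY against AA, although 8 had an unadjusted p under 0.05, DESeq2 called 3 and limma voom called 3.

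AY and YY follicles share young somatic cells and differ in the age of the oocyte. None of the 7 tested members was called by edgeR, against 1.62% of 8533 genes, and DESeq2 and limma voom called none either. An unadjusted p under 0.05 was reached by 2 members, Kdm1a and Kdm1b. Kdm1a averaged 31.1 ± 9.59 CPM in AY and 45.02 ± 13.8 CPM in YY (SD, n = 6 and n = 11), with a log2 fold change of -0.58 ± 0.23 and an edgeR adjusted p of 0.230. Kdm1b averaged 115 ± 28.0 CPM in AY and 82.7 ± 29.7 CPM in YY, with 0.45 ± 0.21 and an edgeR adjusted p of 0.306. The erasers thus stood at opposite signs in AY, without a call for either.

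For the writers that fell in AA, the intervals in AY against YY stayed wide. The log2 fold change of Kmt2b was -0.06, with an approximate 95% interval from its SE of -0.59 to 0.47, so a change of that size in either direction could not be told from none. Kmt2d was -0.29, with an interval of -0.58 to -0.01 and an edgeR adjusted p of 0.358, and all 6 AY libraries lay below the YY median of 126 CPM. This interval is approximate and slightly too narrow, and the unadjusted edgeR p of Kmt2d was 0.0514, above 0.05. Kmt2c was -0.26, with an interval of -0.56 to 0.05. Setd1b was 0.21 ± 0.24 and Cxxc1 0.01 ± 0.22. Of the 37 other pathway genes 1 was called, Bptf, a reader subunit of the NURF remodelling complex, at 178 ± 18.3 CPM in AY and 243.1 ± 33.2 CPM in YY (log2 fold change -0.46, edgeR adjusted p of 0.0383). With the GC content and length correction, the random block of pattern or YY S198 to S202 alone no pathway gene was called.

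**Figure D4:**
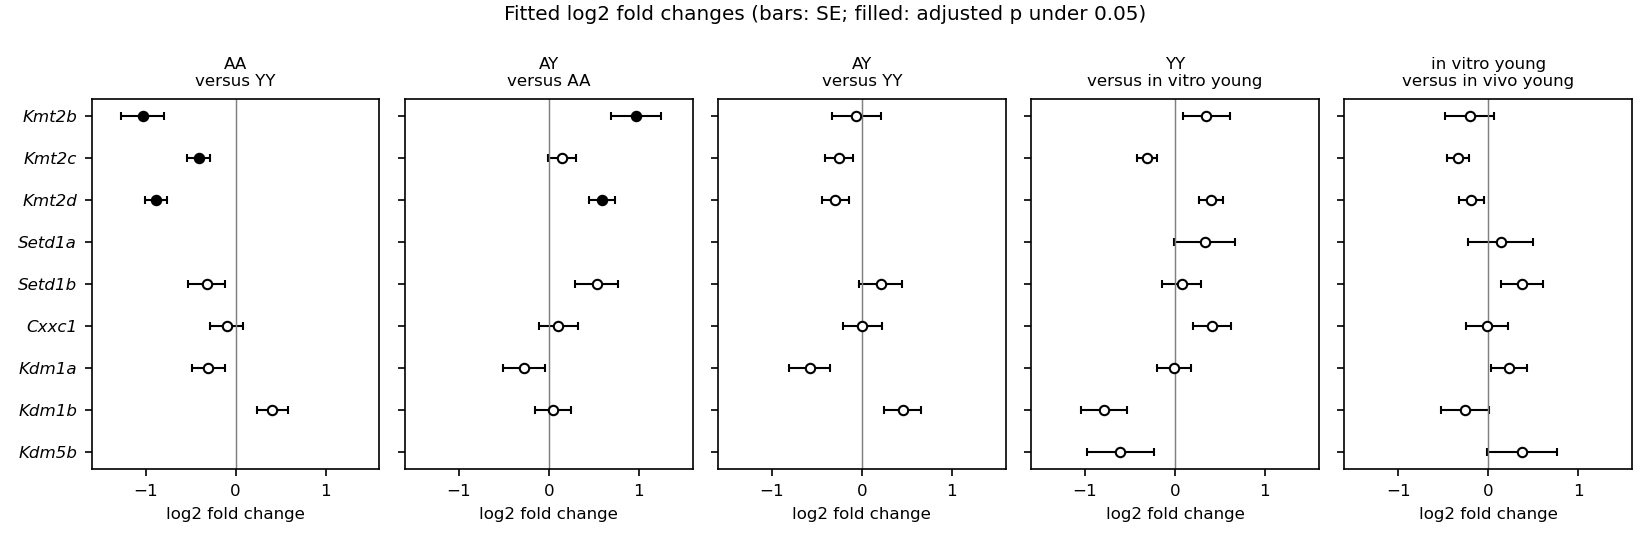
Log2 fold change (horizontal axis) with its SE of 9 members in 5 comparisons, first-named group over second; filled points have an adjusted p under 0.05 and members below the count filter have no point. Kmt2b and Kmt2d are filled on the left in AA versus YY, at -1.03 and -0.89, and on the right in AY versus AA, at 0.97 and 0.59.

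YY oocytes were set against in vitro young oocytes to ask what follicle reconstitution adds to culture. None of the 9 tested members was called by edgeR, against 2.48% of 8749 genes, and 3 had an unadjusted p under 0.05. Kdm1b had 47.8, 73.004 and 147 CPM as its lowest, median and highest levels in YY, against 72.98, 146 and 228.3 CPM in in vitro young. The log2 fold change was -0.79 ± 0.25, with an edgeR adjusted p of 0.0867. DESeq2 and limma voom each called Kdm1b, and so did edgeR without in vitro young replicate 3 (-0.88, edgeR adjusted p of 0.0431) or without YY replicate 3 (-0.91, edgeR adjusted p of 0.040).

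Kmt2d had 73.5, 126 and 167 CPM as its lowest, median and highest levels in YY, against 70.4, 94.3 and 106 CPM in in vitro young. Of the 11 YY libraries, 8 lay above the highest in vitro young library. The log2 fold change was 0.40 ± 0.13, with an edgeR adjusted p of 0.0870, and it was called without YY replicate 3 (0.46, edgeR adjusted p of 0.0277) and against YY S225 to S231 alone (0.49, edgeR adjusted p of 0.0212). Kmt2c was -0.31 ± 0.11, with an edgeR adjusted p of 0.130. The remaining tested members were Kmt2b at 0.35 ± 0.26, Setd1a at 0.33 ± 0.34, Setd1b at 0.08 ± 0.21, Cxxc1 at 0.41 ± 0.21, Kdm1a at -0.01 ± 0.19 and Kdm5b at -0.61 ± 0.37. None of the 36 other tested pathway genes was called by edgeR, 5 had an unadjusted p under 0.05, and DESeq2 and limma voom called 1 each.

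In vitro young oocytes were set against in vivo young oocytes to compare culture with none. No member of the 9 tested was called, by edgeR, DESeq2 or limma voom, against 0.137% of 8749 genes called by edgeR. Kmt2c was the 1 member with an unadjusted p under 0.05, at -0.33 ± 0.12 and an edgeR adjusted p of 0.298. It had 123, 168 and 235 CPM as its lowest, median and highest levels in in vitro young, against 180.3, 224.99 and 255 CPM in in vivo young, and 5 of 8 cultured oocytes lay below the lowest uncultured one. Kmt2d was -0.19 ± 0.14, Kmt2b -0.20 ± 0.27, Setd1a 0.14 ± 0.37, Setd1b 0.38 ± 0.23, Cxxc1 -0.02 ± 0.23, Kdm1a 0.23 ± 0.20, Kdm1b -0.26 ± 0.27 and Kdm5b 0.38 ± 0.39. None of the 36 other tested pathway genes was called by edgeR, DESeq2 or limma voom, and 5 had an unadjusted edgeR p under 0.05.

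Across the 5 groups, the means of Kmt2c stood in a graded order, which was picked out after the values were seen. Its mean was 107 ± 29.9 CPM in AA, 118 ± 26.9 CPM in AY, 141 ± 20.6 CPM in YY, 175 ± 37.5 CPM in in vitro young and 221 ± 25.6 CPM in in vivo young. Neighbouring groups in this order overlapped, while all 12 AA and all 6 AY libraries lay below all 8 in vivo young libraries. Of 8062 genes with a mean of at least 10 CPM, 0.744% had all AA below all in vivo young libraries and 1.49% had all AY below them. Kmt2d did not follow that order: its mean was 123 CPM in YY, 105 ± 14.1 CPM in in vivo young, 99.8 ± 17.3 CPM in AY, 92.2 ± 12.6 CPM in in vitro young and 66.6 CPM in AA. Kmt2b had a mean of 12.0 ± 4.17 CPM in AA, and the means of the other groups were 23.5 ± 6.38 CPM in AY, 24.4 ± 10.7 CPM in YY, 19.2 ± 6.04 CPM in in vitro young and 21.2 ± 7.77 CPM in in vivo young.

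Ratios within a library do not depend on its depth or scaling. They were not corrected for GC content, which was 58.4% for Kmt2d and 47.6% for Kmt2c, and 44.4% for Kdm1b and 51.7% for Kdm1a. Kmt2d counts per Kmt2c count averaged 0.672 ± 0.227 in AA, 0.857 ± 0.133 in AY, 0.886 ± 0.231 in YY, 0.545 ± 0.119 in in vitro young and 0.481 ± 0.077 in in vivo young. Both control groups thus had a lower mean of Kmt2d counts per Kmt2c count than AA, AY and YY alike. The ranges overlapped, except that in vivo young reached at most 0.605 and AY began at 0.685. Kdm1b counts per Kdm1a count averaged 3.47 ± 1.82 in AA, 4.19 ± 2.1999 in AY and 1.92 ± 0.688 in YY, and 3.52 ± 1.958 in in vitro young and 4.79 ± 2.37 in in vivo young. YY was the lowest group in this ratio, at 1.17 to 2.92 over its libraries, against 2.69 to 9.00 in in vivo young. Differences in these ratios were not tested.

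For each member, the non-member gene with the most similar profile over the 45 libraries was found by the root mean square (RMS) difference of log2 CPM, each gene centred on its own mean, among 9153 genes. Kmt2d was nearest to Cdh1, which encodes E-cadherin, at 0.21, the smallest distance of any member, against 0.60 for the median gene. Kmt2b was nearest to Lamb1, a laminin subunit, at 0.40, Kmt2c to Rhpn2 at 0.33, Kdm1b to the oocyte gene Oog4 at 0.36 and Kdm1a to Ppp2r2d at 0.41. Setd1b was nearest to Mbl2 at 0.39, Cxxc1 to Nup62, a nuclear pore gene, at 0.38, Setd1a to Ercc3 at 0.54 and Kdm5b to Wsb1 at 0.62. The members with the fewest counts after Kmt2a, Setd1a and Kdm5b, had the largest distances. A flat profile would lie at 0.395 from Kmt2d, 0.585 from Kmt2b, 0.481 from Kmt2c and 0.586 from Kdm1b. It would lie at 0.465 from Kdm1a, 0.49 from Setd1b, 0.445 from Cxxc1, 0.65 from Setd1a and 0.704 from Kdm5b. Kmt2d thus also varied least of these members, and the gene nearest to Kdm1a was little closer than a flat profile. Shared regulation was not tested.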

How the data were processed

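The authors deposited raw, unscaled counts per gene. The tools named in the submitters' processing notes are STAR 2.7.8a and HTSeq 0.11.0, with build mm39. Settings and strand use are not given in the sources used here. Per the labels' protocols, each oocyte gave 1 library with 16 PCR cycles for cDNA and 8 for the library. No molecular identifiers are named, so counts are not counts of molecules. Total counts limit precision most for members with few counts.

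Counts were fitted with edgeR 4.0.16 (R 4.3.3) with TMM scaling, filterByExpr (minimum count 10, minimum total 15) and robust quasi-likelihood tests, called at an adjusted p under 0.05. AA, AY and YY shared 1 fit, and YY and the controls another. The SE came from the F statistic. Alternatives were DESeq2 1.42.0, limma 3.58.1 (voom), RLE size factors, other filters, other sets of libraries, a replicate block, a random block of pattern, genes detected as a covariate and each library left out. The random block of pattern was fitted in limma voom, so it differs from the main fit in method as well as in the block. The GC content and length correction, from GENCODE M21 transcripts (99.9% of tested genes matched), was chosen after seeing the data. In no comparison did every same-numbered pair of libraries correlate over 0.1 in its deviations, so the numbers were not taken to pair them. No pair of libraries of the same group agreed within counting noise, and pairs across groups were not checked. The fit was tested on simulated data.

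The members and lists were chosen with earlier results of these data known. All 10 members are named in each comparison, with up to 4 called genes per direction of the other pathway lists by smallest p, and the nearest gene to each member.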

Additional observations from a re-analysis of the deposited data

Results flagged for a closer look

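A single library stood apart from its group for 2 of 27 sets of levels checked with Dixon's test, in groups of 4 to 10 libraries. Chance alone flags about 1 set in 20. Kdm1a was low in in vivo young replicate 3, at 14.89 CPM, while the other 7 in vivo young libraries had 35.0 to 49.4 CPM. Kdm1b was high in in vivo young replicate 2, at 363.1 CPM, while the others had 116 to 205 CPM. No member was called in in vitro young against in vivo young with or without either library.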

How the results depend on the processing

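The number of members called moved with these settings. In AA against YY, against 3 in the main analysis, it was 1 with the random block of pattern and 1 with YY S198 to S202 alone, 2 with the GC content and length correction, and 4 with limma voom, no filter, the replicate block or YY S225 to S231 alone. In AY against AA, against 2, it was 0 with the random block and 0 with the GC content and length correction. In YY against in vitro young, against 0, it was 1 with DESeq2, 1 with limma voom, 1 with YY S225 to S231 alone and 2 with all 45 libraries in 1 fit. Leaving out each library in turn gave 3 to 4 members called in AA against YY, 0 to 2 in AY against AA, 0 to 2 in YY against in vitro young, and 0 in the other comparisons. The cause was not tested.

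The number of other pathway genes called moved as well. In AA against YY, against 17, it was 10 with the random block and 5 with YY S198 to S202 alone. In AY against AA, against 0, it was 3 with DESeq2, 3 with limma voom, 2 with no filter, 5 with the replicate block, 1 with the GC content and length correction, 4 with only the 2 groups and 1 with all 45 libraries. In AY against YY, against 1, it was 2 with DESeq2, 2 with limma voom, 6 with YY S225 to S231 alone, and 0 with the replicate block, the random block, the GC content and length correction or YY S198 to S202 alone. In YY against in vitro young, against 0, it was 2 with the GC content and length correction and 1 with DESeq2, limma voom, no filter, either run of YY libraries alone or all 45 libraries.

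Signs turned only for members that were not called. With the replicate block, in AY against YY Kmt2b was 0.33 and Cxxc1 -0.0064, and in YY against in vitro young Setd1a was -0.10, Setd1b -0.11 and Kdm1a 0.0048. With the random block, Kmt2b was 0.16 in AY against YY and Setd1b -0.027 in YY against in vitro young. With the GC content and length correction, Setd1b was 0.22 and Cxxc1 0.11 in AA against YY, Cxxc1 -0.13 in AY against AA, Kmt2b 0.13 and Cxxc1 -0.023 in AY against YY, and Setd1b -0.10 in YY against in vitro young. With genes detected as a covariate, Cxxc1 was -0.022 in AY against YY, Kdm1a 0.18 in YY against in vitro young, and Cxxc1 0.027 and Setd1a -0.066 in in vitro young against in vivo young, where limma voom gave Cxxc1 0.0196. With YY S198 to S202 alone, Kmt2b was 0.42 and Cxxc1 -0.085 in AY against YY, and Setd1a -0.39, Setd1b -0.17, Kdm1a 0.10 and Kmt2b -0.12 in YY against in vitro young. Leaving out 1 library, Kmt2b ranged between -0.17 and 0.074 and Cxxc1 between -0.086 and 0.11 in AY against YY, Kdm1b between -0.042 and 0.14 in AY against AA, Kdm1a between -0.12 and 0.092 in YY against in vitro young, and Cxxc1 between -0.11 and 0.11 in in vitro young against in vivo young.

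The labels do not say that a replicate number marks a shared source. Same-numbered libraries of AA and YY correlated at -0.088 to 0.196 in their deviations from the group means (11 pairs, 2 over 0.1), those of in vitro and in vivo young at -0.09 to 0.242 (8 pairs, 4 over 0.1), and none of the 5 comparisons had every pair over 0.1. With the replicate block the calls were 4 members in AA against YY, Kdm1b at 0.43 among them, 2 in AY against AA and 0 in the others. Without TMM scaling, all 50 levels moved by less than 1 SD. Few counts limit Kmt2a, Setd1a and Kdm5b, for which no difference was detectable at this depth. They also limit the precision of Kmt2b in AA, which had 115 counts there, beside 97 for Kdm5b and 81 for Setd1a.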

Other observations

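Kdm5d, a demethylase gene listed on chromosome Y in the deposited table, had 192 counts in these oocyte libraries, in 43 of 45 libraries and with at most 13 in any library. It averaged 5.45 ± 2.45 CPM in AA (n = 12), 3.80 ± 2.96 CPM in AY (n = 6), 3.58 ± 2.57 CPM in YY (n = 11), 5.73 ± 2.89 CPM in in vitro young and 4.08 ± 1.86 CPM in in vivo young (SD, n = 8 each). The sources used here do not say what was done with reads that match similar genes, so these counts are uncertain.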
